A study of Homo sapiens with 4 samples.

Results

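SAF-A, also called hnRNP U, is an abundant nuclear protein that binds RNA and DNA, and CLIP-seq maps where it touches RNA: ultraviolet light fixes the contacts, an antibody pulls the protein down, and the RNA that comes with it is sequenced. In HCT116, an established human colorectal carcinoma line with wild type SAF-A, the study made 2 SAF-A pull-down libraries and 2 input libraries. Each input was a portion of lysate kept out of the antibody step and run on the same gel system, with RNA taken from the membrane at and just above the size of SAF-A. No other treatment or genotype is labelled, and both groups come from this 1 line. The sites described here are the wide ones that both pull-downs listed and neither input did, so they were chosen by the measured peaks themselves: their presence in 4 lists and their width. Peaks of each pull-down that overlapped a peak of the other by at least 1 base on the same strand were merged, merged sites that overlapped an input peak on that strand were removed, and those of 50 bases or more were kept. This gave 7755 wide sites, 21.6% of the 35889 input-free sites of both pull-downs and 61.0% of the 12704 wide sites that both pull-downs shared. The input-free share was near this over all 62968 sites of both pull-downs, at 57.0%, and was 56.0% in sites under 50 bases. All 4 lists together held 161657 distinct sites.

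A peak in such a list is a stretch of RNA in which reads pile up above the caller's limit. SAF-A is known to bind long nuclear RNAs, introns of unspliced transcripts included, and to hold chromatin-associated RNA in place. Because reads keep their strand, sites that belong to 1 transcript lie on 1 strand. The positions are those of the deposited lists, and they were read as GRCh37: 27 of the wide sites, on 11 chromosomes, ended beyond the last base of the chromosome in GRCh38, and 0 did so in GRCh37. No genome or gene annotation of that build was used here, so sites are given by position, without gene, exon, intron or UTR, no sequence is printed, and the cell line was not checked against marker genes.

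The lists held 96061 and 111256 peaks in pull-downs 1 and 2, against 29386 and 42256 in inputs 1 and 2. The read depth behind them is unknown, and a longer list can come from deeper sequencing. Peaks that went into wide sites made up 7763 of the first pull-down list (8.08%) and 7782 of the second (6.99%). Since the rule itself asks for peaks in both pull-downs and none in the inputs, these numbers only describe the selection. Whether the replicates were separate cultures is not labelled, and every p-value then measures only the spread between these libraries, which may be technical.

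Wide sites were not a separate peak in the width distribution but its long, slowly falling shoulder. Input-free sites were most often 12 bases wide, with 2821 sites of that width. The number per width then fell to 94 sites at 50 bases and stayed between 21 and 96 per width up to 201 bases. The median wide site measured 105 bases, with quartiles of 74 and 148 bases, and the whole set covered 881 kb. Widths of 50 to 74 bases made up 25.3% of the sites, 75 to 99 bases 20.4%, 100 to 149 bases 29.9% and 150 to 201 bases 22.4%. The widest single peak in any list had 201 bases. Sites wider than that, 155 in all (2.0%), joined peaks that were offset between the pull-downs, and the widest reached 373 bases. The limit of 50 bases cut through this shoulder without a break: the 94 sites of exactly 50 bases had median scores of 15 in each pull-down, and the 90 sites of 49 bases had 14 and 16. Of these sites, 31.9% and 32.2% were followed along the strand by a wide site.

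**Figure D1:**
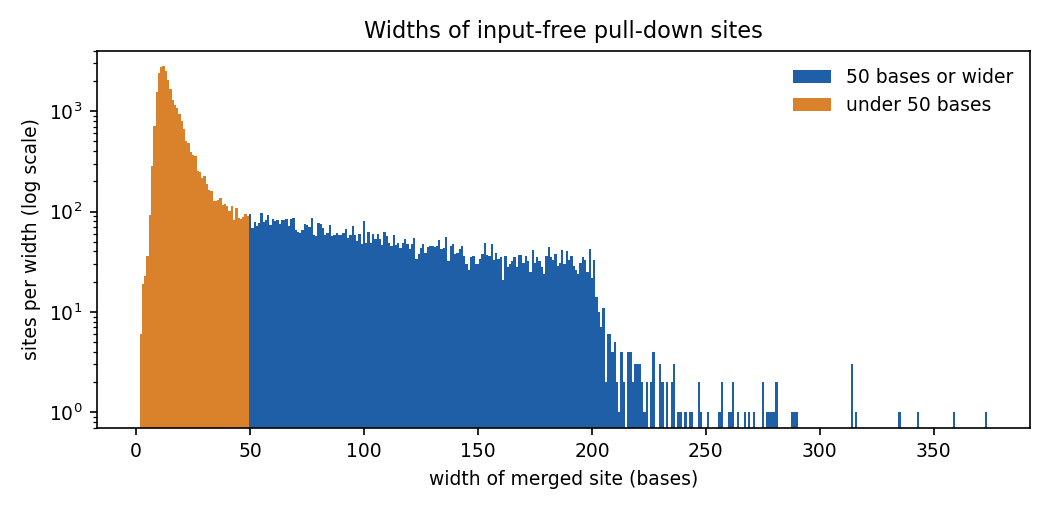
Number of input-free pull-down sites (y axis, log scale) at each width in bases (x axis), with sites of 50 bases or wider in blue and narrower ones in orange. The narrow sites form a steep peak at 12 bases, and the wide ones a slowly falling shoulder that drops off beyond 201 bases.

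Nearly every wide site was 1 peak of each pull-down: 7721 of 7755 (99.6%) were made so, and 34 held several peaks of a library. The 2 peaks often differed in extent. In 3216 sites (41.5%) both peaks were at least 50 bases wide. In 4372 (56.4%) only 1 was, evenly divided between pull-down 1 (2191) and pull-down 2 (2181). In the remaining 167 (2.15%) neither was, and only their union reached the limit. In the median site 34.8% of the bases were covered by both peaks, and where both peaks were wide 75.3% were. The 3′ ends lay closer together than the 5′ ends, with a median offset of 9 against 15 bases and 34.7% against 24.0% of sites within 2 bases.

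Wide sites were mostly weak ones by the authors' score, a whole number of at least 10 whose meaning is not stated. Their median score was 15 in pull-down 1 and 16 in pull-down 2. Input-free sites under 50 bases had medians of 17 and 18, and wide sites with an input peak had 32 and 34. Of the wide sites, 55.9% scored under 20 in both pull-downs and 12 scored at least 100 in both. Scores of the 2 pull-downs went together with a Spearman rho of 0.51 over the 7755 sites (0.59 over the narrower input-free sites). This is a description, as all points share the same 2 libraries.

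The 5 best-scoring wide sites lay at varied distances from other wide sites. The site with the best mean rank was a plus-strand site of 93 bases on chromosome 2 (chr2:217284691-217284783), with a score of 350 in pull-down 1 and of 331 in pull-down 2. Its nearest wide site on that strand lay 1019 kb away. The next, a plus-strand site of 98 bases on chromosome 9 (chr9:107436499-107436596), scored 316 and 347. On chromosome X, a minus-strand site of 52 bases (chrX:23907766-23907817) scored 199 and 243. On chromosome 8, a minus-strand site of 95 bases (chr8:116951855-116951949) scored 154 and 172, and on chromosome 17 a plus-strand site of 61 bases (chr17:35449137-35449197) scored 134 and 161. The nearest wide site on the strand lay 88.0 kb from the chromosome 9 site, 53.0 kb from that on X and 35.7 kb from that on 17. For the chromosome 8 site it lay 762 kb away. Over all wide sites the median distance was 113 kb, and 20.2% had another within 10 kb, so distance did not set these 5 apart. The widest site of all, on the plus strand of chromosome 9 (chr9:86201084-86201456), joined a peak of 195 bases in each pull-down, with scores of 163 and 39. The 4 next widest measured 316 to 359 bases, with scores of 12 to 30.

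The sites lay on both strands of every nuclear chromosome, 3884 on the plus and 3871 on the minus strand (50.1% plus), and 0 lay on the mitochondrial genome. Chromosome 2 held the most (673), followed by chromosomes 1 (594) and 3 (587). Their share among all input-free sites differed between chromosomes. It was highest on chromosome 17, at 29.5% (95% Wilson interval 27.0 to 32.1), chromosome 22, at 28.9% (24.7 to 33.5), and chromosome 12, at 26.0% (24.1 to 28.1). The lowest shares were those of chromosome Y, at 8.42% (5.25 to 13.2), chromosome 18, at 15.8% (13.6 to 18.4), and chromosome X, at 15.9% (14.3 to 17.8). These intervals cover counting error only, and neighbouring sites are not independent.

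Each pull-down taken alone had chromosomes 22 and 17 highest, but the order below them differed. Chromosome 19 came next after them in each, with 21.5% and 24.3% wide among its input-free peaks in pull-downs 1 and 2. Chromosome 12, with 20.7% and 22.98%, came below chromosome 19 in pull-down 1 and below chromosomes 19, 16 and 8 in pull-down 2. Wide peaks made up 25.3% and 29.8% on chromosome 17 (pull-downs 1 and 2) and 25.8% and 31.4% on chromosome 22. On chromosome X they made up 11.3% and 12.7%, on chromosome 18 12.5% and 13.05%, and on chromosome Y 6.12% and 5.77%. Chromosomes 17 and 22 were thus above chromosomes X, 18 and Y in each library. Gene-dense chromosome 19 held 2.37% of the wide sites, against 2.14% of the narrower input-free sites and 3.84% of the wide sites with an input peak. In the same order, chromosome 17 held 4.67%, 3.08% and 5.27%, chromosome 22 1.51%, 1.02% and 1.54%, and chromosome X 3.38%, 4.91% and 3.46%. Against the narrower sites, these chromosomes thus differed in the same direction in wide sites with an input peak, and the pattern is not particular to input-free ones. With only 1 merged set of sites, no test over samples can be made for these shares.

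**Figure D2:**
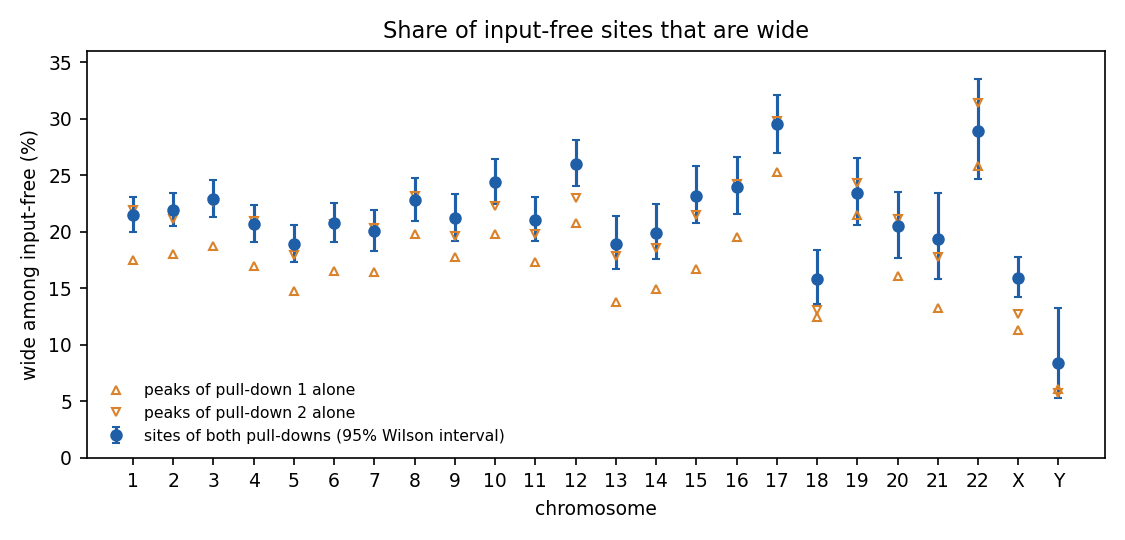
Share of input-free sites that are at least 50 bases wide (y axis, percent) on each chromosome (x axis), with 95% Wilson intervals for the sites of both pull-downs in blue and the same share among the input-free peaks of each pull-down alone in orange. Chromosomes 17 and 22 are high and chromosomes 18, X and Y are low in each pull-down.

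Along the strands, wide sites gathered near other wide sites. When the input-free sites of a strand were read in order, the next site after a wide one was also wide in 35.6% of 7743 cases (34.6 to 36.7), against 17.7% of 28097 cases (17.3 to 18.2) after a site under 50 bases. The figures were alike on the plus strand (35.9% against 17.8%) and on the minus strand (35.4% against 17.7%). Both shares pool all distances. Where the next site began less than 1 kb away it was wide in 57.2% of cases after a wide site and in 19.7% after a narrower one. At gaps of 3 to 10 kb these shares were 57.1% and 21.02%, at 30 to 100 kb 32.9% and 16.9%, and beyond 300 kb 17.8% and 17.7%. The difference between wide and narrower sites thus shrank with distance until the shares met, so the pooled share after wide sites depends on how closely they lie.

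The gathering was found in each pull-down alone and was weaker among better-scoring peaks. In the input-free peaks of pull-down 1 the next peak was wide in 37.1% of cases after a wide peak and in 13.4% after a narrower one. In pull-down 2 it was 41.5% and 15.6%. Among peaks with a score of at least 20 the shares were 21.1% and 15.05%. In lists cut to the best-scoring peaks of equal number, which left 541 wide sites, they were 15.2% and 15.2%, so there the difference was gone. Among the wide sites themselves, 39.1% of the 4328 that scored under 20 in both pull-downs were followed by a wide site, against 27.0% of the 1469 that scored at least 20 in both. Whether score or list length sets this was not tested.

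Neighbouring wide sites lay more often on the same strand than on the other. A second wide site lay within 10 kb on the same strand for 1567 wide sites (20.2%), and on the other strand for 244 (3.15%). The median distance was 113 kb to the nearest wide site on the same strand and 286 kb to the nearest on the other. Of the input-free sites under 50 bases, 14.3% had another within 10 kb on the same strand and 8.50% on the other. Their medians were 60.9 and 77.1 kb. For wide sites with an input peak the shares were 10.1% and 3.01%. The sets held 28134 and 4949 sites, against 7755 wide input-free ones. A larger set has more neighbours within 10 kb on either strand by number alone, so strand preference is not compared between the sets.

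**Figure D3:**
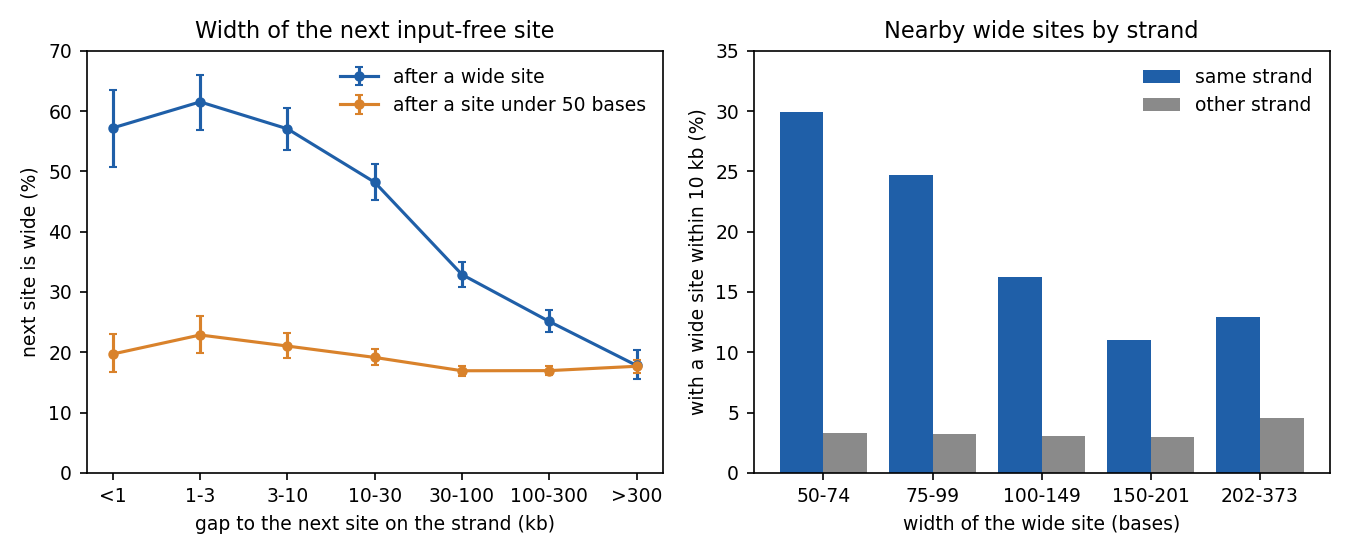
Left, share of input-free sites whose next site on the strand is wide (y axis, percent, 95% Wilson intervals) by the gap to that site (x axis, kb), after a wide site in blue and after a site under 50 bases in orange; the blue values fall to the orange ones beyond 300 kb. Right, share of wide sites with another wide site within 10 kb (y axis, percent) by width in bases (x axis), on the same strand in blue and on the other strand in grey; the same-strand share is 29.9% at 50 to 74 bases and 11.05% at 150 to 201 bases.

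Close neighbours were most frequent among the narrower wide sites. Of the sites of 50 to 74 bases, 29.9% had another wide site within 10 kb on the same strand. The share was 24.7% at 75 to 99 bases, 16.2% at 100 to 149 bases and 11.05% at 150 to 201 bases. On the other strand it stayed between 2.93% and 3.27% in these classes. The share followed by a wide site varied less with width, at 37.7%, 39.5%, 35.2% and 30.8% from the narrowest to the widest of these 4 classes. Input peaks were also nearer to the narrower of them: 38.9% of the sites of 50 to 74 bases had a same-strand input peak within 10 kb, against 21.6% of those of 150 to 201 bases. Sites that were wide in both pull-downs had a wide same-strand neighbour within 10 kb in 25.1% of cases, against 15.6% of those wide in 1 pull-down. The share was highest, 46.1%, in the 167 sites that were wide in neither, of which 35.3% lay in runs, so it did not follow agreement on width.

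Local runs were defined as 3 or more wide sites on 1 strand, each starting at most 10 kb after the end of the one before. There were 179 such runs with 793 sites, 10.2% of all wide sites (9.57 to 10.9). Most were short: 79 runs held 3 sites, 51 held 4, and 10 held at least 9. They spanned 1.75 to 78.3 kb, with a median of 11.98 kb. By the same rule, 3.87% of the input-free sites under 50 bases lay in runs, although those are more numerous, and 4.14% of the wide sites with an input peak. Sites in runs had a median width of 78 bases, and those outside runs 109 bases. The share in runs was 18.5% at 50 to 74 bases and 3.86% at 150 to 201 bases. With a limit of 75 bases, 3.80% of the wide sites and 5.24% of the narrower ones were in runs, and when both peaks of a site had to reach 50 bases, a setting chosen after seeing the data, 4.07% and 5.26% were. The order of the 2 shares therefore depends on how wide sites are defined.

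The run with the most sites lay on the plus strand of chromosome 2 (chr2:220890458-220968713) and held 18 wide sites in 78.3 kb, 1 every 4.35 kb. On the same strand it also held 17 narrower input-free sites and 5 sites with an input peak. A further run of 9 wide sites lay upstream of it on that strand (chr2:220594143-220632975). The run on the minus strand of chromosome 7 (chr7:130603559-130641483) had 14 wide sites in 37.9 kb and only 6 narrower input-free ones. On the plus strand of chromosome 8, a run of 13 wide sites (chr8:128813290-128869873) had 8 narrower input-free sites among them, and another of 9 lay at chr8:94873445-94897282. The run on the minus strand of chromosome 6 (chr6:159194775-159238476) had 12 wide sites in 43.7 kb and 8 narrower input-free ones. On the minus strand of chromosome 9 a run of 11 wide sites (chr9:21556743-21591455) was mixed with 16 narrower ones. The run of 10 wide sites on the plus strand of chromosome 12 (chr12:66265754-66300512) had 24 narrower input-free sites among them.

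In all 8 runs 0 wide sites lay on the other strand. The runs spanned at most 78.3 kb, and the median distance from a wide site to the nearest on the other strand was 286 kb. Few were thus to be found there in any case, and the 0 says little about strand. The median width in a run was 64.5 to 83 bases. Peaks on the strand of the run numbered 58 and 71 in pull-downs 1 and 2 in the longest one, against 3 and 6 in inputs 1 and 2. In the chromosome 6 run the inputs came closest to the pull-downs, with 3.83 ± 0.33 of every 10000 listed peaks in the pull-downs against 2.49 ± 0.16 in the inputs (SD, n = 2 each). The members were chosen for having no input peak, so these levels describe the runs and do not test them.

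**Figure D4:**
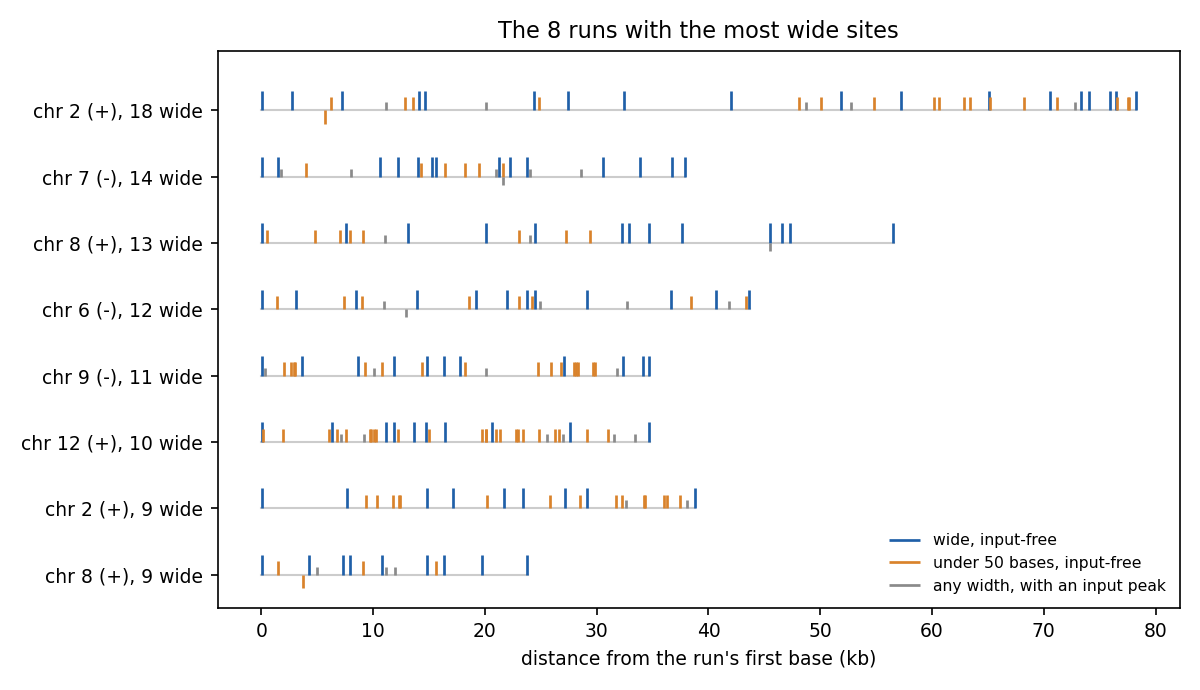
The 8 runs with the most wide sites, each from its first base (x axis, kb), 1 line per run with its chromosome and strand. Ticks above the line are sites on the strand of the run and ticks below it sites on the other strand: wide input-free sites in blue, input-free sites under 50 bases in orange and sites with an input peak in grey; no blue tick lies below a line.

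Unbroken strings are consecutive input-free sites of a strand that were all wide, whatever the distance. They restate the share followed by a wide site, so they are no separate sign of grouping, and no comparison set was computed for them. Of the wide sites, 3448 (44.5%) stood alone between narrower ones and 2355 (30.4%) belonged to 572 strings of 3 or more. The longest string had 17 wide sites over 92.0 kb of the plus strand of chromosome 2 (chr2:220737850-220829836), with no narrower input-free site between them. Strings of 12 lay on the minus strand of chromosome 3 (chr3:114358601-114522746) and on the plus strand of chromosome 8 (chr8:128845512-128960014). The 3 strings of 11 lay at chr4:187544873-187603115 (minus strand), chr5:102266098-102334082 (plus) and chr8:118975690-119264897 (minus). These 6 were named after their lengths were seen.

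In windows of 100 kb on 1 strand, wide sites occupied 5869 windows and were alone in 4899 of them. At least 5 sites were found in 108 windows, with 841 sites or 10.8% of the total. In those 108 windows only 9 wide sites lay on the other strand, 1.06% of the wide sites there, and in 100 of them there were 0. For input-free sites under 50 bases the share on the other strand was 3.94%, over 92 windows. For wide sites with an input peak it was 5.06%, over 23 windows. The sets differ in number (28134 and 4949 against 7755 sites), and the windows were taken for being full on 1 strand. These shares therefore do not compare strand preference between the sets. The 12 fullest windows held 179 wide sites (2.31%) on 7 chromosomes, and 4 of the 12 lay on the plus strand in 1 stretch, chr2:220600001-221100000.

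The fullest windows held 17 wide sites each, at chr2:220900001-221000000 (plus strand), chr9:21500001-21600000 (minus) and chr12:66200001-66300000 (plus). They differed in what else they held. The window at chr2:220700001-220800000 had 16 wide and 6 narrower input-free sites, whereas the minus-strand one at chr11:5400001-5500000 had 16 wide and 65 narrower ones. The minus-strand window at chr3:114300001-114400000 had 13 wide and 5 narrower sites, with 40 and 53 peaks in the pull-downs against 0 and 3 in the inputs. On the minus strand, the window at chr12:88900001-89000000 had 13 wide and 29 narrower sites. On the plus strand, the window at chr8:129000001-129100000 had 15 wide and 9 narrower sites. In all 12 windows both pull-downs lay above both inputs in peaks per 10000 listed, a direction that the choice of windows favours.

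The rule used overlap with the site itself and not its surroundings, but places with few input peaks favour an input-free site, and with it a higher pull-down share nearby. Input peaks, moreover, cannot belong to other input-free sites in the flanks, while pull-down peaks can. The flanks are therefore a description of the chosen sites and no independent test of them. Within 1 kb of a wide site on the same strand, leaving out peaks that overlapped a wide site, lay 90.9 and 121 of every 10000 listed peaks in pull-downs 1 and 2, against 52.7 and 74.1 in inputs 1 and 2. The groups did not overlap, and the mean was 106 ± 22 against 63.4 ± 15.1 (SD, n = 2 each), a log2 ratio of 0.74. An exact permutation test, two-sided, gave p = 0.333, and 2 libraries against 2 can give no smaller value. In settings chosen after seeing the data, narrow peaks alone gave 65.2 and 85.6 in the pull-downs against 23.1 and 28.9 in the inputs. Wide peaks alone gave 25.7 and 35.8 against 29.6 and 45.2, and the groups overlapped. Leaving out peaks of any other input-free site as well was also chosen after seeing the data. The values were then 66.7 and 100.2 against 52.7 and 74.1, which overlapped (exact permutation p = 0.667). Among peaks with a score of at least 20 the groups overlapped too, with 36.6 and 45.6 in the pull-downs against 31.9 and 39.5 in the inputs, a log2 ratio of 0.20 (exact permutation p = 0.667).

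Around the other sites the order was the opposite. Wide sites with an input peak had 67.6 and 81.6 of every 10000 listed peaks within 1 kb in the pull-downs, against 163 and 174 in the inputs, a log2 ratio of -1.18. There the rule's choice was the reverse, since each of those sites holds an input peak. Input-free sites under 50 bases went the same way. Leaving out the peaks of all input-free sites, 166 and 187 of every 10000 listed peaks in the pull-downs lay within 1 kb of one, against 223 and 232 in the inputs. Set against these values library by library, the surroundings of wide sites had 0.403 and 0.537 times as many peaks in the pull-downs and 0.237 and 0.319 times as many in the inputs. This ratio used a setting chosen after seeing the data, in which the values around wide sites themselves overlapped between the groups. The ratio was 1.69 times higher in the pull-downs (0.470 ± 0.095 against 0.278 ± 0.059, SD, n = 2 each), with no overlap and an exact permutation p of 0.333. The test cannot reach 0.05 with these samples.

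**Figure D5:**
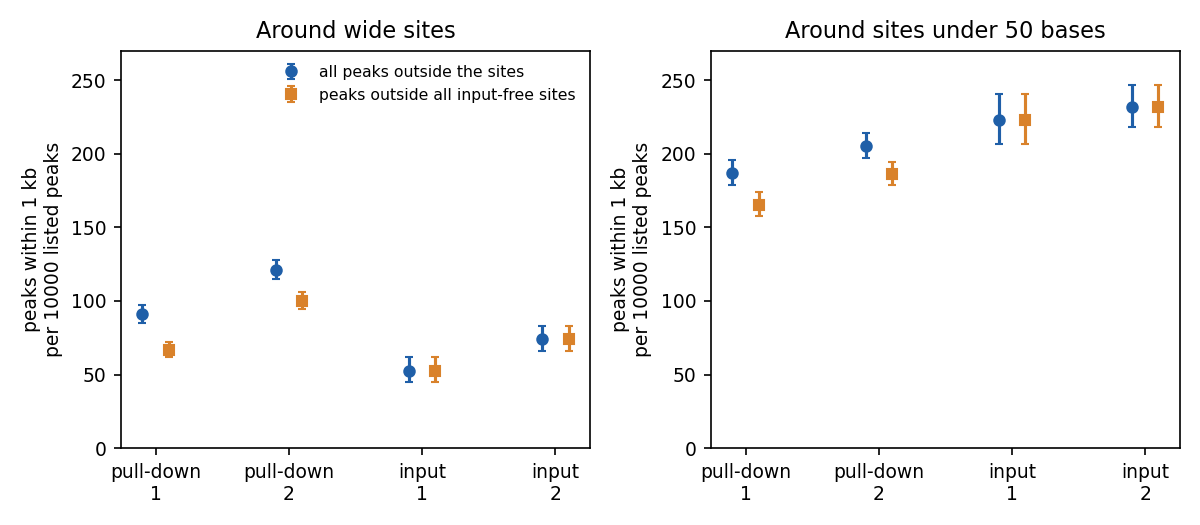
Peaks within 1 kb of a wide site (left) and of an input-free site under 50 bases (right) per 10000 listed peaks (y axis) in each library (x axis), with 95% Wilson intervals for counting error. Blue points leave out peaks of the sites themselves and orange points the peaks of all input-free sites; around wide sites both blue pull-down values lie above both input values, and around narrower sites all pull-down values lie below them.

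On the other strand 21 and 19 peaks of the pull-downs and 4 and 8 of the inputs overlapped a wide site. This is 1.95 ± 0.34 of every 10000 listed peaks in the pull-downs against 1.63 ± 0.38 in the inputs (SD, n = 2 each), and the groups overlapped (exact permutation p = 0.667). The ratio had the other sign among peaks with a score of at least 20 and within 100 bases of a site, so no direction is given. A peak of any library lay opposite 32 of the 7755 wide sites (0.413%, 95% Wilson interval 0.292 to 0.582). This share was 0.178% (0.135 to 0.234) for input-free sites under 50 bases and 0.647% (0.458 to 0.911) for wide sites with an input peak, so low values were found in all 3 kinds of site.

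Regions of 1 Mb asked how the narrow peaks, which were not members, behaved where wide sites were many. Peaks under 50 bases that overlapped no wide site were counted in each region on both strands, and their log2 share of the listed peaks was compared between the pull-downs and the inputs in limma. Of 2718 regions with a mean of at least 10 such peaks, 266 passed an adjusted p of 0.05 (9.79%), 160 of them higher in the pull-downs (5.89%) and 106 lower (3.9%). Over all tested regions the median log2 ratio was 0.10. With each library centred on its median region, 259 passed, 89 of them higher in the pull-downs. With the replicate number as a block 51 of 113 were higher, and with 1 added to each count 124 of 253. At a minimum mean of 20 peaks 58 of 146 were higher (1093 regions tested), and at a minimum mean of 5 peaks 134 of 238 (2858 tested). Which direction held more regions thus depends on the setting. With 1 library left out, 2421 to 2791 regions were tested. Without a pull-down 68 (replicate 1) or 60 (replicate 2) regions passed, and without an input 721 (replicate 1) or 831 (replicate 2), so the total depends on each single library. Among the 95 regions with at least 10 wide sites, 24 were higher and 6 lower, with a median log2 ratio of 0.31. In regions with 3 to 5 wide sites the numbers were 36 higher and 41 lower of 722 and the median was 0.04, and in regions with 0 wide sites 26 higher and 9 lower of 494 and 0.12. Regions poor in input peaks favour both an input-free site and a higher ratio, so the regions rich in wide sites give no separate support.

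The 5 regions with the most wide sites did not all go the same way. They were picked for sites with pull-down peaks and no input peak, which favours a higher ratio. Their p-values therefore describe these regions and are no independent test of them. The region on chromosome 2 from 220000001 to 221000000 held 62 wide sites. It listed 25.6 and 25.7 narrow peaks per 10000 in the pull-downs against 5.10 and 6.15 in the inputs, which made the log2 ratio 2.16, with an SE of 0.18 and an adjusted p of 1.1e-06 in limma. For chromosome 10 from 114000001 to 115000000, with 56 wide sites, the log2 ratio reached 2.07, with an SE of 0.22 and an adjusted p of 1.3e-05 in limma. The region on chromosome 3 from 114000001 to 115000000 had 41 wide sites and a ratio of 2.12 (SE 0.20, limma adjusted p = 3.8e-06). It reached the count limit through 59 and 80 narrow peaks in pull-downs 1 and 2, against 4 and 6 in inputs 1 and 2. On chromosome 12 from 79000001 to 80000000 there were 36 wide sites and a ratio of 1.08 (SE 0.19, limma adjusted p = 0.0018). The region on chromosome 16 from 69000001 to 70000000 held 33 wide sites, and there the narrow peaks did not pass the test. It listed 7.60 and 8.63 per 10000 in the pull-downs against 8.17 and 9.70 in the inputs, which made the log2 ratio -0.15, with an SE of 0.18 and an adjusted p of 0.63 in limma. In lists of equal length 0 of 863 regions passed in limma, with 194 at an unadjusted p under 0.05. There the log2 ratio of the chromosome 2 region was -0.26. Those of the chromosome 10, 12 and 16 regions were 0.16, 0.68 and -0.04, and the chromosome 3 region was not tested.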

How the data were processed

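The authors deposited a peak list per sample, with chromosome, start, end, a score and a strand, so peaks were called per sample. Tools listed without version in the submitters' processing notes are STAR and featureCounts, beside the build GRCh38. The peak caller and limit were not given in the sources used here. Each deposited score, a whole number per peak, served to order or filter the peaks of 1 list at a time. The other deposited values are positions, which run past chromosome ends of GRCh38. Chromosome lengths of both builds came from general knowledge.

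Sites were merged, compared and counted in Python 3.11.15 (numpy 2.4.6, pandas 2.3.3, scipy 1.17.1), and regions were tested in limma 3.58.1 under R 4.3.3 (lmFit and eBayes with a mean trend, Benjamini-Hochberg adjustment). There, 0.5 was added to a library's peak count in a region, which was then scaled to 10000 listed peaks and put on the log2 scale. The limma step was tested on simulated data. Intervals are 95% Wilson intervals. The windows, runs and sites named were taken by fixed ranks: the 12 fullest windows, the 8 fullest runs, the 5 best-ranked and the 5 widest sites, and the 5 regions with the most wide sites. The longest unbroken strings were added after their values were seen. The sites, measures and lists were chosen with earlier results of these data known.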

Additional observations from a re-analysis of the deposited data

How the results depend on the processing

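The number of wide sites, 7755, was 3231 when each peak had to share 50% of its length, 2965 among peaks scoring at least 20, 541 in lists of equal length and 3216 when both peaks had to be wide, a setting chosen after seeing the data. In the same order, the share followed by a wide site was 31.5%, 21.1%, 15.2% and 22.4%, and that in runs 9.07%, 2.46%, 0% and 4.07% (5.26% of the narrower sites in the last). With a width of at least 75 bases, 25.7% were followed by a wide site and 3.80% were in runs. Without input peaks within 1 kb 8.41% were in runs, and with gaps of at most 5 or 20 kb 5.49% or 15.95%. Chromosome 19 held 2.02% at the higher score and 1.85% in equal lists. With 1 library left out, there were 8080 to 17198 wide sites, of which 35.4% to 41.5% were followed by a wide one, 10.2% to 25.003% were in runs and 2.52% to 3.04% lay on chromosome 19. The highest numbers came without a pull-down, because peaks then needed no second list. In these settings the share followed by a wide site was above that after narrower sites, except in equal lists (15.2% each).

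The replicate block lowered the limma calls to 113 of 2718 regions (51 higher). Same-numbered samples deviated with a correlation of 0.03 over the regions. Such a correlation cannot tell whether a pull-down and an input came from the same lysate. The main test left out any pairing, and its number of calls depends on that choice. A minimum mean of 20 peaks gave 146 calls (58 higher), but among only 1093 tested regions, and lists of equal length 0 among 863. With 1 library left out, 2421 to 2791 regions were tested. Left-out libraries gave 60 (without pull-down replicate 2) to 831 (without input replicate 2) calls. In equal lists the log2 ratio of the chromosome 2 region with the most wide sites was -0.26. Its sign was reversed, but it did not pass (limma adjusted p = 0.44). The named regions on chromosomes 10, 12 and 16 kept their signs, at 0.16, 0.68 and -0.04, and that on chromosome 3 was not tested there. Flanking wide peaks alone gave -0.28 around wide sites, and opposite-strand peaks -0.36 within 100 bases and -0.53 at the higher score. Flanking peaks scoring at least 20 gave 0.20, with overlapping groups. Flanks with 1 library left out gave 0.52 to 1.01, and opposite-strand peaks 0.04 to 0.52. The cause of these changes was not tested. Depth is unknown, so a site free of input peaks may be one that the shorter input lists did not reach.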
